A study of Rattus norvegicus with 2 samples.

Results

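The genes described here handle serotonin and related monoamines. They are Slc6a4 and Slc18a2 (transporters), Tph1 and Hdc (synthesis), Maoa and Maob (breakdown), and Htr1b, Htr2a and Htr7 (serotonin receptors). The 9 genes are a list of names, set with earlier results of these data known, and the rule uses no measured value. Array probes were matched to them through the RefSeq accession that each probe carries. Of the 9 genes, 7 had a probe, out of 8898 genes with a symbol on the array, and these 7 genes were covered by 10 probes. Maoa and Tph1 were matched by no accession and were not analysed here.

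RNA of whole blood was compared between rats given lavender oil (LO, the essential oil of Lavandula angustifolia) and control rats on 2 Agilent rat whole genome arrays. The 12 male rats were 7 weeks old. Their strain is Wistar by one label and F334 by another label, and Fischer F334 by the methods of the study. In the LO group 6 rats received 5 mg/kg of LO in 10% ethanol into the stomach, and in the control group 6 rats received the 10% ethanol diluent with 0 mg/kg of LO, daily for 13 days, and blood was taken on day 14. Both groups therefore received ethanol and ether anesthesia. The labels name the heart and the portal vein as the source of the blood, and the methods name the heart. Before labelling, RNA from the 6 rats of each group was combined into 1 pool. On array 1 LO was labelled with Cy5 and control with Cy3, and on array 2 the labels were swapped. The arrays were thus 1 replicate of the comparison, a technical dye swap. They hold no spread between rats, and no test between the conditions was possible.

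Serotonin in blood is carried almost entirely by platelets. These cells do not synthesize it but take it up from plasma through the serotonin transporter and pack it into dense granules through the vesicular monoamine transporter. The serotonin itself comes largely from enterochromaffin cells of the gut, where tryptophan hydroxylase starts its synthesis. Histamine, a related amine, is made by histidine decarboxylase and stored mainly in basophils and mast cells. Monoamine oxidases of the outer mitochondrial membrane degrade amines inside cells.

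Each probe gave 4 processed signals, in arbitrary units, 1 for each pool on each array, and the software rated each channel as well above background or not. Over 41009 probes the median processed signal ranged from 52.72 to 61.94 between the 4 channels, and 44.4% to 49.9% of the probes were well above background. No feature was saturated (0 features). The log2 ratios of LO over control on the arrays were opposed, with a Pearson r of -0.672 across all probes, which are not independent replicates. The direction of each ratio follows the dyes stated in the labels and methods. Each ratio was therefore split into a pool part, the mean LO/control log2 ratio of both arrays, and a dye part, the part that followed Cy5 over Cy3. This split rests on the dyes being as stated. Had those of a single array been recorded wrongly, the pool part and the dye part would change places in size. Whether the dyes were recorded rightly was not tested. In 15386 probes, called bright from here on, all 4 channels were well above background. Over these the SD was 0.12 for the pool part and 0.30 for the dye part.

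Of the 10 probes for the monoamine genes, 4 were well above background in all 4 channels, compared with 37.5% of all probes. These were both probes of Slc6a4, 1 probe of Slc18a2 and 1 probe of Htr7, thus 3 genes. Another 4 probes were well above background in no channel, compared with 41.1% of all probes. These were the probes of Maob, Htr1b and Htr2a and the second probe of Htr7. The probe of Hdc and the second probe of Slc18a2 lay between, with some channels bright and some dim. Towards the same pool on both arrays, 0 of the 10 probes had an authors' Feature Extraction p under 0.01, against 0.0219% of all probes. The same threshold was passed towards the same dye by 2 of the 10 probes, Hdc and the second probe of Slc18a2, against 2.64% of all probes. Both were higher in Cy5, a direction called in 1.58% of all probes. With a p under 0.001 this count fell to 1, and it was 0 after Benjamini-Hochberg adjustment and 0 among bright probes. This p comes from the error model of a spot and is no test between the conditions.

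**Figure D1:**
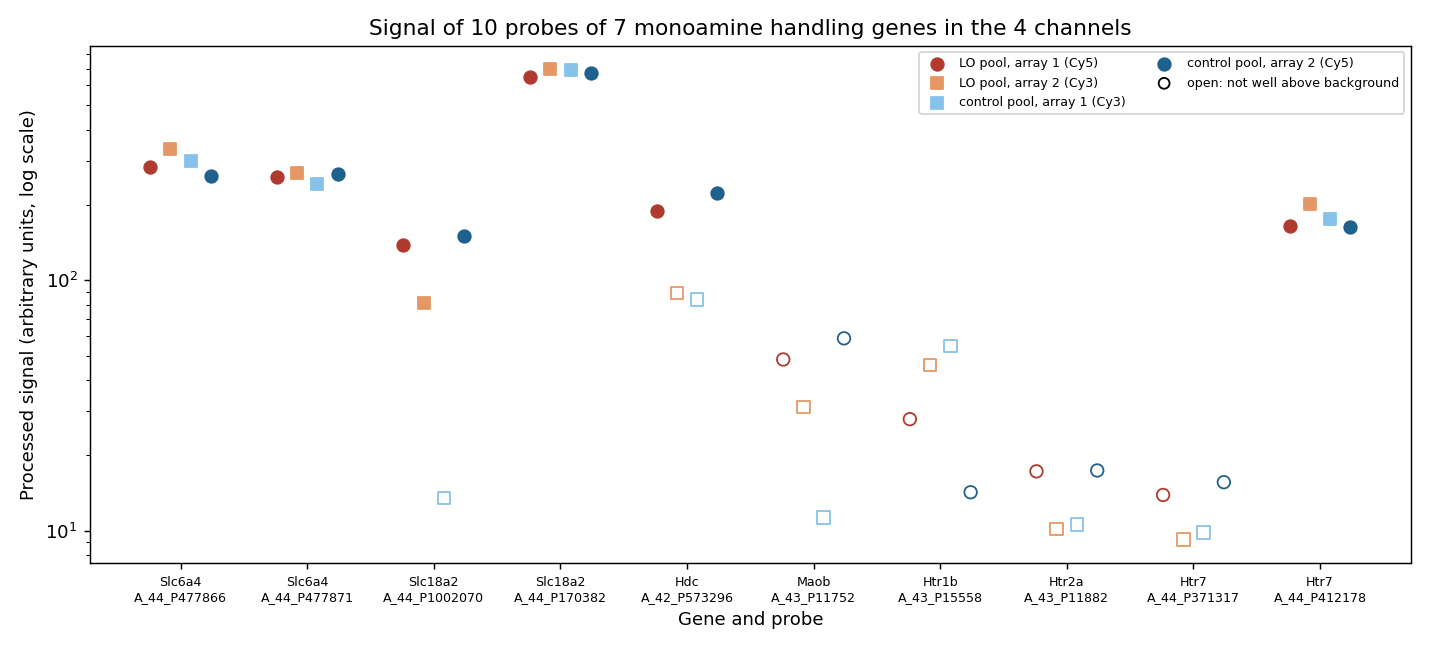
Processed signal (arbitrary units, log axis) of the 10 probes of 7 genes in the 4 channels: circles are Cy5, squares are Cy3, red tones are the LO pool, blue tones the control pool, and open symbols were not well above background. All 4 symbols are filled for both Slc6a4 probes, 1 Slc18a2 probe and 1 Htr7 probe, while for Hdc the Cy5 symbols of both pools lie above the Cy3 symbols of both pools.

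Slc6a4 encodes the serotonin transporter of the plasma membrane, the target of selective serotonin reuptake inhibitors. Its RNA was detected in both pools on both arrays by both probes. For probe A_44_P477866 the signal of the LO pool was 283.6 on array 1 and 333.4 on array 2, and that of the control pool was 300.0 on array 1 and 261.3 on array 2. The LO signal was thus slightly below the control on array 1 and above it on array 2, so the signals of the pools overlapped. The ratio of LO over control was 0.945 on the first array and 1.28 on the second, and their geometric mean was 1.098, with a 95% interval of 0.887 to 1.36 by the software error. The authors' Feature Extraction p on array 1 was 0.715, and on array 2 0.117. The pool part of this probe, 0.14 on the log2 scale, was larger in size than in 78.9% of the bright probes, and its dye part was -0.22.

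The other Slc6a4 probe, A_44_P477871, gave an LO signal of 258.4 on array 1 and 269.0 on array 2 and a control signal of 242.4 and 266.3. The LO pool was the higher on both arrays by a few percent, less than the software error of either array. The ratios were 1.07 and 1.01, with a geometric mean of 1.04 (95% interval 0.834 to 1.29). The authors' Feature Extraction p was 0.689 and 0.949. The mean ratio of both probes lay within its software error of 1, and the intervals reach up to 1.36-fold for the first probe and 1.29-fold for the second.

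Slc18a2 encodes the vesicular monoamine transporter, which loads serotonin, histamine and catecholamines into granules. Probe A_44_P170382 was bright in every channel, with an LO signal of 651.2 on array 1 and 695.3 on array 2 and a control signal of 689.1 and 672.3. The LO pool was the lower one on array 1 but not on array 2, and the 4 values lay close together. The LO/control ratios were 0.945 and 1.03, with a geometric mean of 0.989 (95% interval 0.809 to 1.21). The authors' Feature Extraction p was 0.696 and 0.816. Its pool part was -0.02 on the log2 scale, and 16.1% of the bright probes had a smaller one.

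The other Slc18a2 probe, A_44_P1002070, gave an LO signal of 138.0 on array 1 and 81.19 on array 2 and a control signal of 13.48 on array 1 and 150.0 on array 2. A single channel stood apart, the control pool in Cy3 on array 1, which was not well above background, while the LO pool was bright on 2 arrays and the control pool on 1. The ratio of LO over control was 10.2 on the first array and 0.541 on the second, in opposite directions. The authors' Feature Extraction p on array 1 was 3.32e-08, and on array 2 0.00463. For a comparison within the same dye, each channel was scaled to its median over the bright probes. The LO pool was then 0.970-fold the control in Cy5, where both were well above background. The Cy3 pair holds the dim channel.

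The geometric mean of the ratios of this probe was 2.35 (95% interval 1.48 to 3.74), and its dye part was 2.12 on the log2 scale. The dim control signal was also raised to 51.57, the dimmest signal still rated well above background in its channel. The ratio of array 1 then became 2.68, and the mean of both arrays became 1.20. Within Cy3 the ratio of the signals was then 1.57. Unlike the 0.970 in Cy5, it was taken without scaling the channels to the bright probes. With normexp background correction and loess the mean was 0.15 on the log2 scale. The mean ratio of 2.35 thus rested on 1 dim channel, and the probes of Slc18a2 disagreed. What sets them apart was not tested. A probe of Aoc3, an amine oxidase, had a like set of signals, with 82.17 and 38.69 for the LO pool and 10.59 and 70.19 for the control pool on arrays 1 and 2.

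Hdc encodes histidine decarboxylase, which forms histamine from histidine. Its probe gave an LO signal of 189.1 on array 1 and 89.17 on array 2 and a control signal of 83.93 on array 1 and 222.7 on array 2. The Cy5 signals of both pools were well above background and the Cy3 signals of both pools were not, so each pool was rated bright on 1 of 2 arrays. The ratio of LO over control was 2.25 on the first array and 0.400 on the second. The authors' Feature Extraction p on array 1 was 0.00053, and on array 2 5.05e-05, both towards Cy5. The dye part of 1.25 on the log2 scale was larger in size than in 99.9% of the bright probes, while the pool part was -0.07.

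Within Cy5, where both pools were well above background, the LO signal of Hdc was 0.896-fold the control. For this, too, each channel was scaled to its median over the bright probes. Within Cy3 both pools were dim and no fold is given. The geometric mean of both arrays was 0.950 (95% interval 0.690 to 1.31), and each of its ratios sets a bright channel against a dim one. On either array taken alone the ratio of Hdc would have passed the threshold, in opposite directions, and the same held for the dim Slc18a2 probe.

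**Figure D2:**
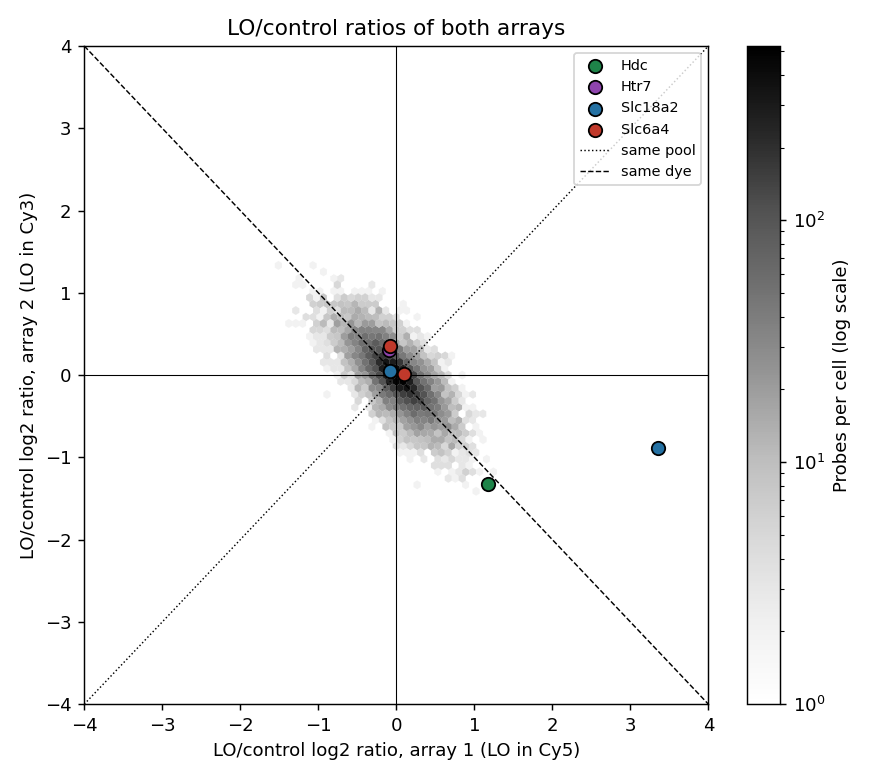
LO/control log2 ratio on array 1 (x axis, LO in Cy5) against array 2 (y axis, LO in Cy3) for the 6 probes measured in both pools (circles), over the 15386 bright probes (grey cells, log scale of probes per cell). The grey cloud lies along the dashed line of equal dye effect, the 4 bright probes lie in it near the origin, Hdc lies at its end, and the dim Slc18a2 probe lies outside it at 3.35 and -0.89.

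Maob encodes monoamine oxidase B, which degrades amines such as phenylethylamine and is the monoamine oxidase found in platelets. Its probe gave an LO signal of 48.28 on array 1 and 31.23 on array 2 and a control signal of 11.27 and 58.64. None of the 4 was well above background, and the higher pool changed with the array. The authors' Feature Extraction p on array 1 was 0.0392, and on array 2 0.129, and no fold is given for a probe dim in both pools.

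Of the serotonin receptors, Htr7 encodes a receptor that raises cyclic AMP, and its probe A_44_P412178 was bright in every channel. The LO signal was 165.2 on array 1 and 201.4 on array 2, and the control signal was 175.9 and 163.0. As with the first Slc6a4 probe, the LO pool lay slightly below control on array 1 and above it on array 2. The LO/control ratios were 0.939 and 1.24, with a geometric mean of 1.08 (95% interval 0.841 to 1.38). The authors' Feature Extraction p was 0.728 and 0.234. The second Htr7 probe, A_44_P371317, matched to the same transcript accession, was well above background in no channel. Its signals were 13.89 and 9.208 for the LO pool and 9.831 and 15.62 for the control pool, and the software had set its log ratio to 0 on both arrays, so it gives no ratio.

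Htr1b encodes a receptor that lowers cyclic AMP, known as an autoreceptor of serotonin nerve endings. Its probe gave an LO signal of 27.90 on array 1 and 45.89 on array 2 and a control signal of 54.74 and 14.24, none well above background. Here the Cy3 signals of both pools were above their Cy5 signals, the reverse of Maob. The authors' Feature Extraction p was 0.165 and 0.0855.

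Htr2a encodes the receptor through which serotonin promotes platelet aggregation. Its probe was printed on several spots, of which 8 were free of quality flags, and 0 of these were well above background in any channel. On array 1 the spots ranged from 14.2 to 23.8 for the LO pool and from 9.87 to 11.6 for the control pool, and on array 2 from 8.92 to 12.0 and from 14.9 to 24.1. On each array the spots of the Cy5 channel lay above those of the Cy3 channel without overlap, and the higher pool changed with the dye. The dim Htr7 probe, whose log ratio the software had set to 0, had the same order. For Htr2a the log ratio was 0 in 3 of the 8 spots on array 1 and in 6 on array 2. How many other dim probes had this order was not counted. The authors' Feature Extraction p over the spots had a median of 0.767 on array 1 and 1 on array 2. For the dim probes of Maob, Htr1b, Htr2a and Htr7 no difference was detectable at these signals, which does not show that the RNA was absent from blood.

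Across the 4 bright probes the pool part ran from -0.02 to 0.14 on the log2 scale, with a median of 0.08 (-0.08 on array 1 alone and 0.18 on array 2 alone), compared with a median of -0.003 and a central 95% of -0.27 to 0.26 over all bright probes. On array 1 the LO pool was lower in 3 of the 4 probes, and on array 2 it was higher in 4 of the 4. On array 1 the ratios of 4 of the 4 probes lay within 1 software error of no difference, and on array 2 those of 2 did. The shares of all bright probes for these counts were not taken, and the 4 probes include both of Slc6a4. With RNA from whole blood, fewer cells of a type and less RNA per cell cannot be told apart.

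**Figure D3:**
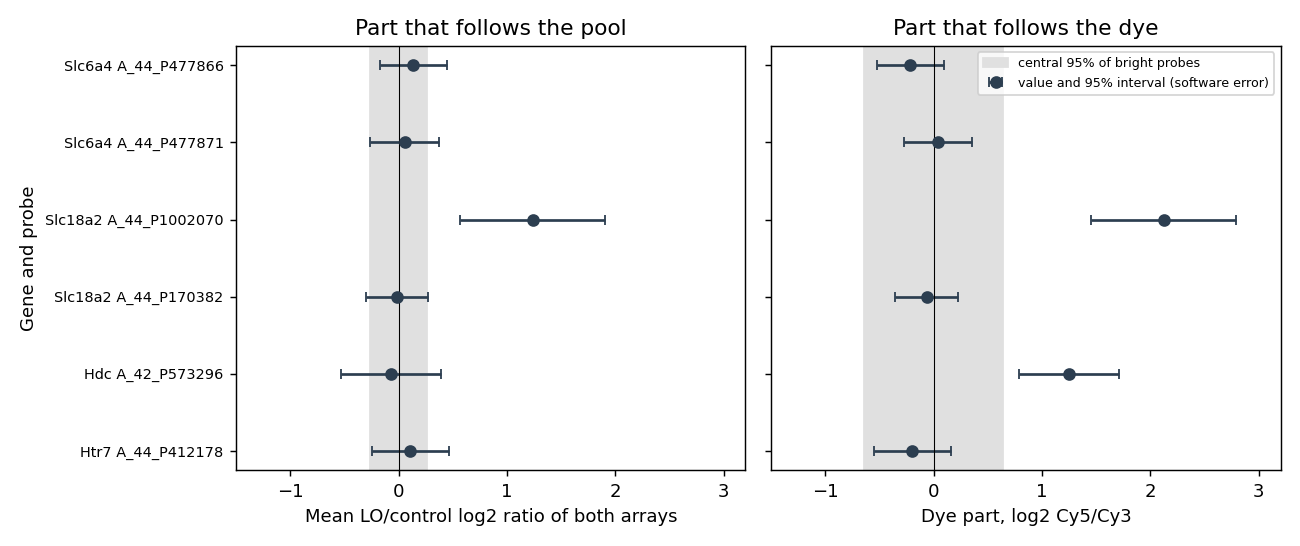
Pool part (left, mean LO/control log2 ratio of both arrays) and dye part (right, log2 Cy5/Cy3) of the 6 probes measured in both pools, with bars for the 95% interval by the software error and grey bands for the central 95% of the 15386 bright probes. The pool parts of 5 probes lie in the left band, that of the dim Slc18a2 probe lies at 1.23, and the dye parts of this probe and of Hdc lie outside the right band.

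Other genes of monoamine synthesis, transport, breakdown and reception were listed for comparison. Of 55 such genes, 48 had a probe. Among their 52 probes 22 were well above background in all 4 channels and 20 in none. Towards the same pool 0 of the 52 passed the p threshold of 0.01 on both arrays, against 0.0219% of all probes. Towards the same dye 1 of the 52 passed, a share near the 2.64% of all probes. The pool part of the 22 bright probes had a median of 0.01 on the log2 scale and ran from -0.19 to 0.33.

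In the synthesis list 5 of 6 genes with a probe were bright. They were Ddc, the decarboxylase that forms serotonin and dopamine, Th and Dbh of catecholamine synthesis, and Aanat and Asmt of melatonin synthesis. Th had the highest pool part of all the bright pathway probes, 0.33 with a single-spot software error of 0.27, and Asmt the lowest, -0.19 with an error of 0.20. The value of Th, a mean over 8 spots, lay above the central 95% of all bright probes (-0.27 to 0.26). Its LO/control ratios were 1.095 on array 1 and 1.43 on array 2, and it was not called. The signal of Ddc was 213.0 and 302.7 for the LO pool and 149.4 and 349.0 for the control pool, so array 2 was the brighter for both. Aanat, whose enzyme acetylates serotonin, gave LO signals of 91190 and 86610 and control signals of 86800 and 95820, both pools being slightly higher in Cy5, and its pool part was -0.04. These high signals rest on 1 probe, and whether it measures Aanat RNA alone was not tested. Tph2, the tryptophan hydroxylase of neurons, was not bright in all channels.

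Of the enzymes that make and recycle tetrahydrobiopterin, the cofactor of the hydroxylases, 3 of 4 genes were bright (Gch1, its regulator Gchfr, and Qdpr), with pool parts from -0.08 to 0.01. Among the transporters reported here 0 of 5 genes were bright. In this list 4 of 5 probes were well above background in no channel, among them that of the plasma membrane transporter of dopamine (Slc6a3). The transporter of noradrenaline (Slc6a2) was well above background in the control pool on both arrays. In the LO pool it was so on array 2 only. In the breakdown list 3 of 7 genes were bright. These were Aldh2, Akr1b1 and Aoc3, with pool parts from -0.02 to -0.01. Aldh1a1, an aldehyde dehydrogenase, was the 1 probe that passed towards the same dye, with LO signals of 27.68 and 85.58 and control signals of 82.52 and 32.93, both pools being higher in Cy3.

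Among the other serotonin receptors 2 of 10 genes were bright, Htr3a and Htr6, with pool parts of 0.02 and 0.05. Of the histamine receptors 1 of 3 was bright, Hrh4, a receptor of leukocytes, with LO signals of 307.6 and 252.2 and control signals of 252.3 and 309.2. Both pools were higher in Cy5, but Hrh4 was not called, and its pool part was -0.004. Among the dopamine receptors 3 of 5 were bright (Drd2, Drd3 and Drd5), with pool parts from 0.04 to 0.17. Of the adrenoceptors 4 of 8 were bright (Adra1b, Adra2a, Adra2b and Adrb1), and their pool parts ran from -0.16 for 1 probe of Adra1b to 0.14 for Adrb1. The other bright probe of Adra1b was at 0.12.

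**Figure D4:**
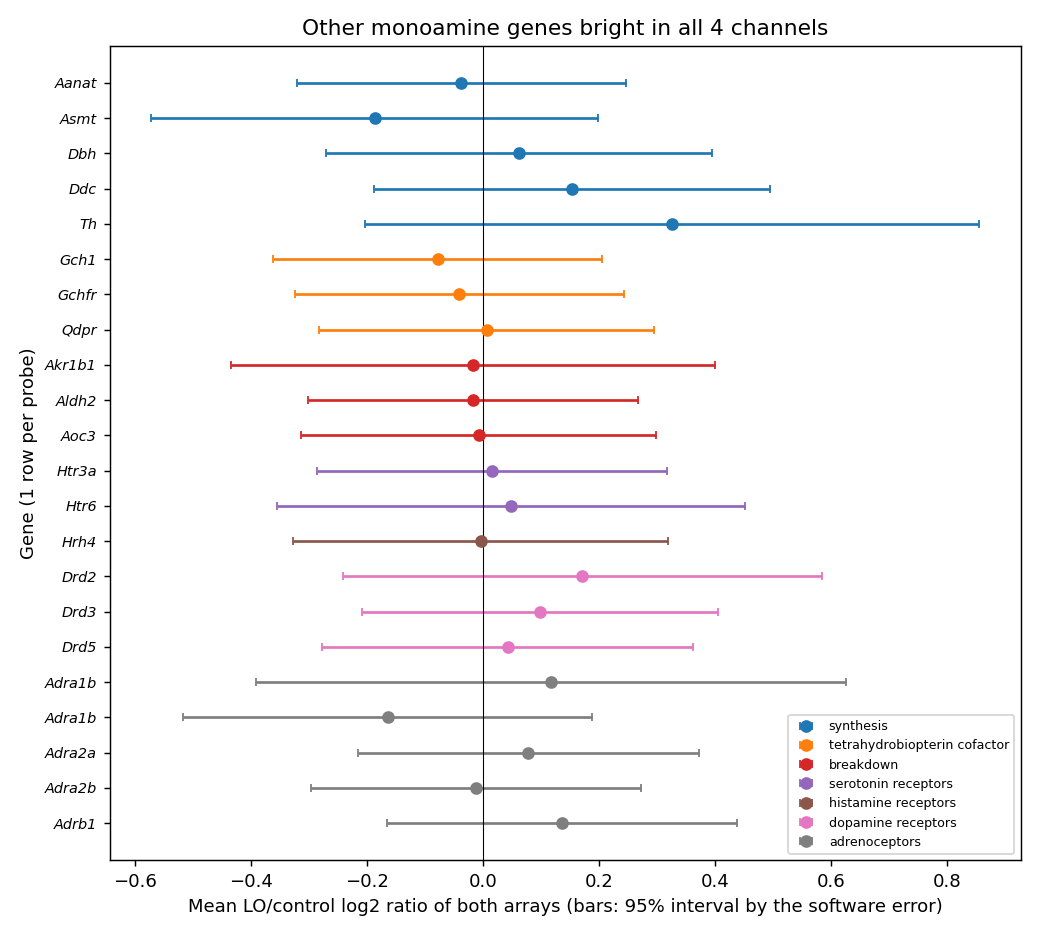
Mean LO/control log2 ratio of both arrays (x axis) of the 22 bright probes of the listed monoamine genes, 1 line per probe, coloured by list, with bars for the 95% interval by the software error. The values run from -0.19 for Asmt to 0.33 for Th, and the interval of each of the 22 probes includes 0. For Th (8 spots) and Drd2 (10 spots) the error is that of a single spot, not reduced for averaging. Their intervals are therefore too wide for a mean over spots, and whether narrower ones would include 0 was not tested.

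The cell types that carry these amines were checked by their markers. All 6 platelet genes with a probe were bright in every channel, among them Pf4, Ppbp, Itgb3 and Gp1bb, and their pool parts ran from -0.05 to 0.07 on the log2 scale. These values lay within the central 95% of all bright probes. Of the mast cell and basophil genes 4 of 8 were bright, Mcpt8, Cma1, Tpsab1 and Il4 (1 of its 2 probes), with pool parts of the bright probes from -0.15 to 0.09. Fcer1a, Kit and Gata2 had no channel well above background, and Ms4a2, a chain of the IgE receptor, was bright in every channel with 0 of its 2 probes. Their part in the values of Hdc was not tested. All genes with a probe were bright in the lists of red cells (3), neutrophils (4), monocytes (5), T cells (4), B cells (1) and NK cells (5). The 5 bright probes of the monocyte list had pool parts from -0.20 to -0.06, with a median of -0.13. A second Cd14 probe, dim in the control pool on both arrays, went the other way, at 0.38 with a software error of 0.47. The neutrophil list had pool parts from 0.05 to 0.12, with a median of 0.11. Among the red cell genes, Alas2 passed the threshold towards the same dye, as Hdc did, with a dye part of 1.11 on the log2 scale.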

How the data were processed

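The authors extracted the slide images with Agilent Feature Extraction 11.0.1.1. The deposited scanner output holds, for each feature, intensities (median, background-subtracted, and processed after LOWESS dye normalization), the log10 ratio of Cy5 over Cy3, its error, a p-value of the software's error model, and flags for quality and background. The deposited value table has no stated scale. It equalled the log10 of the processed Cy5/Cy3 ratio within 1e-06, and unlike the log ratio of the scanner output it is not set to 0 where both channels are dim.

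The deposited log10 ratios were expressed as LO over control, according to the labelling of each array, and converted to log2. Of 43379 features that were not controls, 338 with a flag for non-uniformity or population outlier on either array were left out, which left 41009 probes. Spots of a probe were averaged, and the median of their p-values and of their software errors was taken. The error of a probe on several spots is thus that of a single spot and was not reduced for averaging. A repeated probe was rated well above background by most of its spots. A pool was taken as measured where it was well above background on at least 1 array. The 95% interval of a mean ratio is 1.96 software errors and covers the error of the spots only, not that between rats. As in the methods of the study, a call needed a p-value under 0.01 and Cy5/Cy3 ratios in opposite directions on the arrays. This was taken here as a p-value under 0.01 on each array, which the methods do not state. Over all probes it called 4 up and 5 down in the LO pool, far fewer than the genes that the study reports. The counts of calls given here are thus not the outcome of the authors' own selection. Calls in the same Cy5/Cy3 direction, 1082 over all probes, were counted as following the dye. Which calls follow the pool and which the dye depends on the stated dyes of each array.

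The array design is tied to the rn4 build. Symbols came from a GRCr8 table through RefSeq accessions, for 10767 probes, and no coordinates are given. The members and lists were chosen with earlier results of these data known. A few listed genes are not reported here and were left out of the lists and their counts. The genes named are all members, each listed pathway gene bright in all 4 channels or called, and up to 4 genes of a marker list. Slc6a2, Slc6a3, Tph2 and the dim probes of Aoc3, Cd14, Fcer1a, Kit, Gata2 and Ms4a2 were named after their values were seen. The code of the call rule was run on simulated ratios drawn with the software errors of the real spots. Such ratios cannot show how well those errors fit these data. Tables were handled with pandas 2.3.3 and numpy 2.4.6 in Python 3.11.15, plots were drawn with matplotlib 3.10.9, and limma 3.58.1 in R 4.3.3 gave the normexp (offset 50, on median intensities) and loess alternative. The alternatives covered the p threshold, flags, spots, single arrays, background rating, background correction and dye normalization.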

Additional observations from a re-analysis of the deposited data

How the results depend on the processing

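The count of monoamine probes called towards the same pool was 0 at a p under 0.05, 0.01 and 0.001 and after Benjamini-Hochberg adjustment, and it was 2 with array 1 alone and 2 with array 2 alone, where nothing separates pool from dye. The count towards the same dye, 2 here, was 1 at a p under 0.001, 0 after Benjamini-Hochberg adjustment and 0 among probes well above background in all 4 channels. By the positive-and-significant flag of the software, a looser rating, 6 member probes and 35 pathway probes were bright in all 4 channels, against 4 and 22. The median ratio of the 6 probes measured in both pools ranged from 0.006 to 0.14 on the log2 scale over the 11 alternatives tried. That of the 4 bright probes, 0.08 here, was -0.081 with array 1 alone and 0.18 with array 2 alone, and from 0.04 to 0.09 in the other alternatives. The Slc18a2 probe A_44_P170382 and the Slc6a4 probe A_44_P477871 moved by less than their software error in all 11. Several of the 11 could not move them. Keeping flagged features, the median over spots and the value table could not change any of the 6 measured probes, each on 1 unflagged spot. Raising dim signals could not change the 4 bright ones, nor Hdc, whose dim signals lay above the values to which they would be raised. The ratio of the Slc18a2 probe A_44_P1002070 moved in 7 of 11, from -0.89 with array 2 alone to 3.35 with array 1 alone, and the cause was not tested. That of Hdc moved in 3 of 11, to 1.17 and -1.32 with single arrays and to 0.41 with the arithmetic mean of ratios. The bright probes A_44_P477866 of Slc6a4 and A_44_P412178 of Htr7 each moved in 2 of 11. With array 1 alone they were at -0.08 and -0.09, and with array 2 alone at 0.35 and 0.31. The alternatives by a single dye and with dim signals raised were chosen after seeing the data. No paired analysis was possible because the groups hold 1 pool each. Signal over background limits Hdc, Maob, Htr1b, Htr2a and 1 probe each of Htr7 and Slc18a2.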
